A study of Mus musculus with 6 samples.

Results

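The 8 genes described here, of 17312 in the table, are the mesenchymal and neural cadherins Cdh2, Cdh4, Cdh6, Cdh7, Cdh8, Cdh10, Cdh11 and Cdh13. They were chosen by name and not by a rule on their levels, but with earlier results of these data known. All 8 had a row in the table, 5 passed the filter on low values and were tested, and Cdh7, Cdh8 and Cdh10 did not pass. Bulk RNA came from 6 mouse leg tumors. In 3 of them the mouse carried a Cre-lox inducible allele of SS18-SSX2, and in the other 3 an allele of SS18-SSX1, the fusion oncoproteins of synovial sarcoma. Both groups had been injected with TATCre, a cell-permeant form of the Cre recombinase, in the pre-tibial region of the leg, and were left for about 1 year without other treatment before the tumors were taken. Because Cre came as an injected protein, no promoter limited which cell types recombined, and the labels give neither strain, sex, age at injection nor whether the tumors of a group came from separate mice. The p-values therefore measure only the spread between these samples. No tumor-free tissue was analysed here, so each level is set against the other genotype only.

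Cadherins are calcium-dependent adhesion proteins that hold like cells together by binding the same cadherin on the neighbouring cell. Classical cadherins of type I and type II pass through the membrane and attach to actin through beta-catenin, alpha-catenin and p120-catenin, and cells that carry different cadherins sort apart from each other in embryos. Mesenchymal and neural tissues use N-cadherin, R-cadherin and the type II members where epithelia use E-cadherin, and synovial sarcoma can show both mesenchymal and epithelial areas.

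The tumors carried RNA of other cell types in unequal amounts, which touches every level below. Marker lists are given as the mean log2(FPKM + 1) of their genes, where FPKM is the fragment count scaled to gene length and library size. All 8 skeletal muscle fibre markers were detected in each tumor, with means of 3.24, 8.46 and 3.36 in SS18-SSX2 tumors 1, 2 and 3 and 4.40, 9.62 and 4.49 in SS18-SSX1 tumors 1, 2 and 3, so tumor 2 of each genotype was the richest in muscle RNA. The 5 mast cell markers had a mean of 8.34 in SS18-SSX1 tumor 3, against 1.83 to 3.55 in SS18-SSX2 tumors and 3.60 to 4.17 in the other SS18-SSX1 tumors. Library totals worked out from the smallest steps of FPKM ran from 7285853 to 14529847 reads in SS18-SSX2 tumors and from 13316363 to 17546227 reads in SS18-SSX1 tumors, and the shallowest library was SS18-SSX2 tumor 2. The 5 synovial sarcoma markers had means of 3.32, 3.47 and 3.60 in SS18-SSX2 tumors 1, 2 and 3 and 3.66, 3.82 and 4.18 in SS18-SSX1 tumors 1, 2 and 3. Among them the corepressor Tle1 stood at 29.8 to 37.0 FPKM in SS18-SSX2 tumors and 23.3 to 25.7 FPKM in SS18-SSX1 tumors, whereas the transcription factor Sox2 stood at 9.55 to 21.3 FPKM in SS18-SSX2 tumors and 31.1 to 40.7 FPKM in SS18-SSX1 tumors. The Y-linked gene Ddx3y had at most 0.0148 FPKM in SS18-SSX2 tumors and at least 28.2 FPKM in SS18-SSX1 tumors. Xist, an X-linked gene, had at least 56.3 FPKM in SS18-SSX2 tumors and at most 7.03 FPKM in SS18-SSX1 tumors. These genes differed as between female tissue (SS18-SSX2) and male tissue (SS18-SSX1), while the labels give no sex. Genotype therefore cannot be told apart from this pattern of sex-linked genes, or from the sex of the mice, in any comparison below.

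Cdh11 was the most abundant of the 8 cadherins in all 3 SS18-SSX2 tumors and in 2 of the 3 SS18-SSX1 tumors. Cdh4 and Cdh6 followed, Cdh13 and Cdh2 were lower, and Cdh7, Cdh8 and Cdh10 were the lowest, at 1.65 FPKM or less in every tumor. Of the 5 tested cadherins, 0 passed between the genotypes (limma, Benjamini-Hochberg adjusted p under 0.05), where 9 of 13873 genes did (0.0649%), and 1 of the 5, Cdh11, had an unadjusted p under 0.05, where 4.97% of genes did. The values of the genotypes overlapped for all members but Cdh11 and Cdh8. That is 1 of the 5 tested cadherins, where 8.72% of tested genes did not overlap, and 2 of all 8, against 9.21% of all genes in the table.

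**Figure D1:**
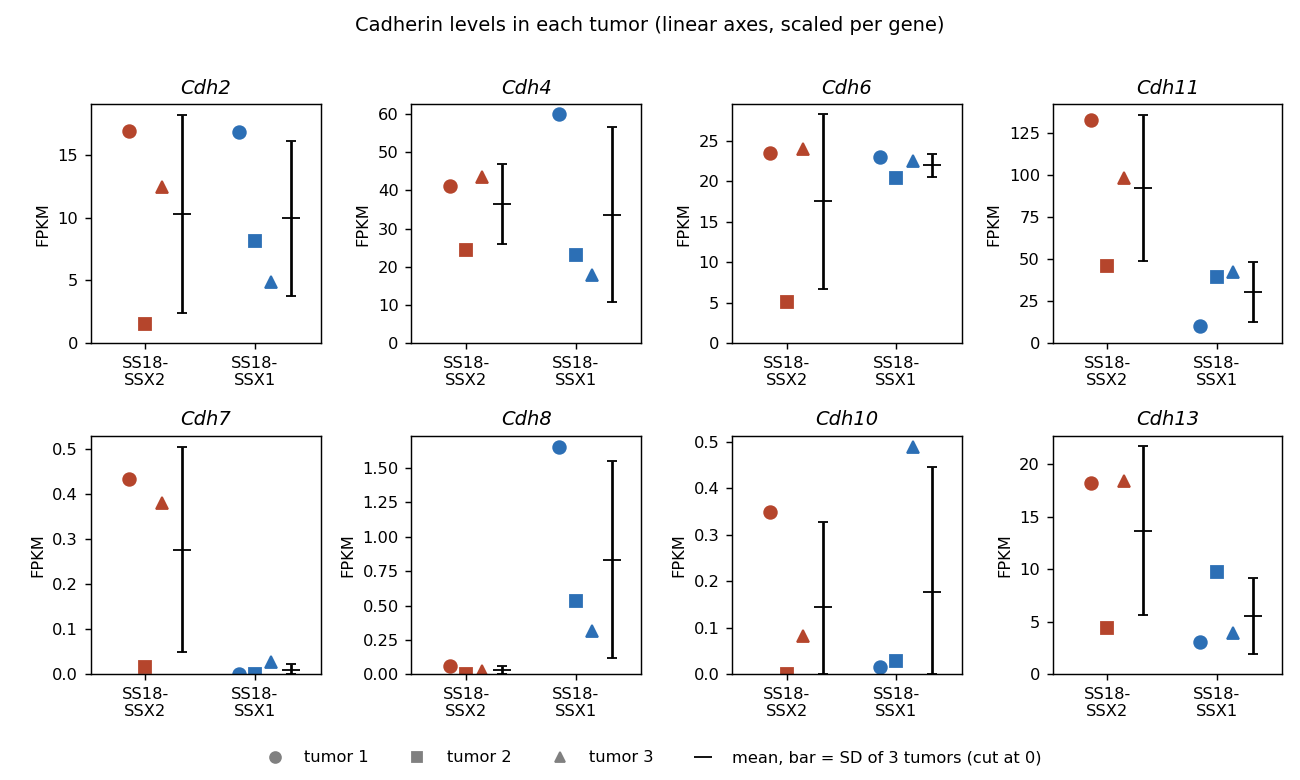
Level of each cadherin in FPKM (vertical axis, linear and scaled per gene) in the 3 SS18-SSX2 tumors (left, red) and the 3 SS18-SSX1 tumors (right, blue). Symbols are single tumors, and the black bar is the mean with its SD over 3 tumors, cut at 0. The groups are apart for Cdh11, at 46.0 FPKM or more against 42.1 FPKM or less, and for Cdh8, and overlap for the other cadherins.

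The type I cadherin Cdh4 encodes R-cadherin, the retinal cadherin, which is also used in muscle and kidney development. It had 41.2, 24.3 and 43.5 FPKM in SS18-SSX2 tumors 1, 2 and 3 and 60.1, 23.0 and 17.9 FPKM in SS18-SSX1 tumors 1, 2 and 3. The highest and the lowest value both belonged to SS18-SSX1 tumors, and the groups overlapped. The means were 36.3 ± 10.5 FPKM in SS18-SSX2 tumors and 33.7 ± 23.0 FPKM in SS18-SSX1 tumors (SD, n = 3 each). The log2 fold change, on the log2(FPKM + 1) scale as for all members below, was 0.26 (SE 0.47, 95% interval -0.82 to 1.34, limma adjusted p = 0.997). Even at its lowest Cdh4 was above 76.1% of the genes in the table, and in SS18-SSX1 tumor 1 it was above 96.8%.

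Cdh2, the other type I member, encodes N-cadherin, the cadherin of neurons, heart, myoblasts and mesenchyme whose gain is the usual sign of an epithelial to mesenchymal transition. It stood at 16.9, 1.50 and 12.4 FPKM in SS18-SSX2 tumors 1, 2 and 3 and at 16.8, 8.12 and 4.88 FPKM in SS18-SSX1 tumors 1, 2 and 3. The values spanned 11.3-fold, and both the highest and the lowest were in SS18-SSX2 tumors, with the lowest in tumor 2. Means of 10.3 ± 7.92 FPKM in SS18-SSX2 tumors and 9.93 ± 6.17 FPKM in SS18-SSX1 tumors (SD, n = 3 each) differed by less than the spread between tumors. Its log2 fold change was -0.22 (SE 0.75, 95% interval -1.97 to 1.52, limma adjusted p = 0.997). Leaving out SS18-SSX2 tumor 2 turned it to 0.65, leaving out SS18-SSX1 tumor 1 turned it to 0.20, and the ratio of FPKM means was 1.03, so its sign was not stable. N-cadherin RNA was below that of R-cadherin in every tumor, with Cdh4 2.44 to 16.3 times as high in SS18-SSX2 tumors and 2.83 to 3.67 times as high in SS18-SSX1 tumors.

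Among the type II members Cdh11 encodes OB-cadherin, found first in osteoblasts and carried by mesenchyme, fibroblasts and synovial lining cells, where it builds the lining of the joint. It reached 132, 46.0 and 97.8 FPKM in SS18-SSX2 tumors 1, 2 and 3, against 10.1, 39.1 and 42.1 FPKM in SS18-SSX1 tumors 1, 2 and 3. Every SS18-SSX2 tumor was above every SS18-SSX1 tumor, but SS18-SSX2 tumor 2 lay just above the 2 higher SS18-SSX1 tumors. Groups did not overlap in this direction for 4.97% of tested genes. The means were 92.1 ± 43.5 FPKM in SS18-SSX2 tumors and 30.4 ± 17.7 FPKM in SS18-SSX1 tumors (SD, n = 3 each), a ratio of 3.03. The log2 fold change was 1.67 (SE 0.60, 95% interval 0.28 to 3.06), and it did not pass over all genes (limma adjusted p = 0.840). It was 1.04 without SS18-SSX1 tumor 1, the tumor with the lowest Cdh11, and 2.39 without tumor 2 of both genotypes (limma adjusted p = 0.342), a setting in which 0 of the 5 cadherins and 0.144% of genes passed. In SS18-SSX2 tumors 1 and 3 Cdh11 was above 99.2% and 98.1% of the genes in the table, and in SS18-SSX1 tumor 1 above 61.1%.

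Fibroblast markers, like Cdh11, had their lowest mean in SS18-SSX1 tumor 1. The 5 genes Dcn, Lum, Col1a1, Col3a1 and Pdgfra, all detected in every tumor, had means of 6.94, 6.98 and 7.08 in SS18-SSX2 tumors 1, 2 and 3 and 4.69, 7.25 and 5.90 in SS18-SSX1 tumors 1, 2 and 3. Their summed level ran from 1358 to 2133 FPKM in SS18-SSX2 tumors and from 403 to 3171 FPKM in SS18-SSX1 tumors. The members did not share 1 order. Decorin (Dcn), a proteoglycan of connective tissue, was lowest in SS18-SSX1 tumor 1, at 6.27 FPKM, as was Lum, whereas the collagen genes Col1a1 and Col3a1 were lowest in SS18-SSX1 tumor 3, at 249 and 33.1 FPKM. Pdgfra, a growth factor receptor of fibroblasts, had 76.2 FPKM in SS18-SSX1 tumor 1, above all tumors but SS18-SSX2 tumor 1. SS18-SSX1 tumor 2, however, had the highest summed fibroblast level and 39.1 FPKM of Cdh11. The 4 osteoblast markers analysed had means of 1.59 to 1.99 in SS18-SSX2 tumors and 0.70 to 2.34 in SS18-SSX1 tumors, again lowest in SS18-SSX1 tumor 1. The part of these cells in the Cdh11 levels was not tested, and in bulk RNA fewer cells of a type cannot be told apart from less RNA per cell.

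**Figure D2:**
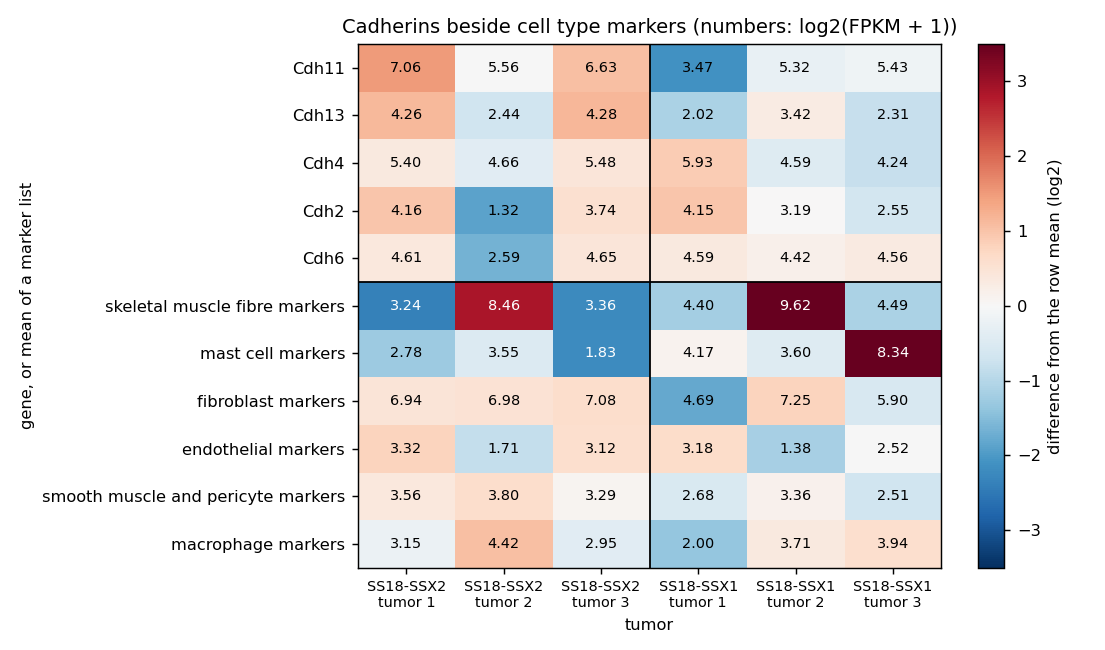
Levels of the 5 tested cadherins (upper rows) and means of 6 cell type marker lists (lower rows) as log2(FPKM + 1), printed in each cell, for SS18-SSX2 tumors (left) and SS18-SSX1 tumors (right). Colour is the difference from the row's mean. Cdh11 is lowest, at 3.47, in SS18-SSX1 tumor 1, where the fibroblast mean is 4.69, and Cdh2 and Cdh6 are lowest in SS18-SSX2 tumor 2, at 1.32 and 2.59.

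Cdh6 encodes K-cadherin, the type II cadherin of the embryonic kidney and of the neural crest. It had 23.5, 5.01 and 24.1 FPKM in SS18-SSX2 tumors 1, 2 and 3 and 23.0, 20.4 and 22.5 FPKM in SS18-SSX1 tumors 1, 2 and 3. The values of 5 tumors lay within 20.4 to 24.1 FPKM, and SS18-SSX2 tumor 2 stood apart below them. The muscle marker mean was 8.46 in SS18-SSX2 tumor 2 and 9.62 in SS18-SSX1 tumor 2, and the part of muscle RNA in the Cdh6 levels was not tested. The means were 17.5 ± 10.8 FPKM in SS18-SSX2 tumors and 22.0 ± 1.40 FPKM in SS18-SSX1 tumors (SD, n = 3 each), with a log2 fold change of -0.57 (SE 0.53, 95% interval -1.81 to 0.66, limma adjusted p = 0.997). Without SS18-SSX2 tumor 2 the log2 fold change was 0.11 (SE 0.27).

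The other type II members, Cdh7, Cdh8 and Cdh10, are cadherins of the nervous system. None reached 1 FPKM in 3 tumors, so they are described by reads recovered from the steps between values, with intervals that cover counting error only. Cdh8 had 7, 0 and 3 reads in SS18-SSX2 tumors 1, 2 and 3, against 170, 57 and 43 reads in SS18-SSX1 tumors 1, 2 and 3. As levels these were 0.0622, 0 and 0.0270 FPKM in SS18-SSX2 tumors and 1.65, 0.535 and 0.317 FPKM in SS18-SSX1 tumors, with every SS18-SSX2 tumor below every SS18-SSX1 tumor, a pattern that 3.93% of all genes in the table had. The 0 in SS18-SSX2 tumor 2 allows up to 0.0532 FPKM, the value of 3 reads. Over the group depths the ratio of SS18-SSX2 to SS18-SSX1 reads was 0.0457 (95% exact interval 0.0217 to 0.0853). With no filter on low values the log2 fold change was -0.77 (SE 0.27), which did not pass (limma adjusted p = 0.923, with 6 of 17312 genes, 0.0347%, passing). The 1 FPKM added before taking logs exceeds most levels of Cdh7, Cdh8 and Cdh10, so it shrinks their fold changes. Those fold changes do not measure how large a difference is at such low levels. Gm15679, an annotated gene on the other strand, overlaps the exons of Cdh8, and the sources used here do not give the strand handling, so some of these reads may belong to it.

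Cdh7 had the opposite order in part of the SS18-SSX2 group. It had 54, 1 and 47 reads in SS18-SSX2 tumors 1, 2 and 3 and 0, 0 and 4 reads in SS18-SSX1 tumors 1, 2 and 3. Tumors 1 and 3 of SS18-SSX2, at 0.434 and 0.382 FPKM, were above all others, and tumor 2, at 0.0160 FPKM, fell among the SS18-SSX1 values. The ratio of reads over depth was 31.5 (95% exact interval 11.9 to 118). With no filter the log2 fold change, shrunk by the added 1 FPKM, was 0.32 (SE 0.17, limma adjusted p = 0.995). Most Cdh10 reads came from 1 tumor of each genotype. It had 51, 0 and 12 reads in SS18-SSX2 tumors 1, 2 and 3 and 2, 4 and 86 reads in SS18-SSX1 tumors 1, 2 and 3. Its ratio over depth was 0.845 (95% exact interval 0.603 to 1.18), and its log2 fold change with no filter was -0.03 (SE 0.21, limma adjusted p = 0.995).

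Promoter sequences of Cdh6 and Cdh8 are shown because they set a type II gene with RNA in every tumor, Cdh6, beside a type II gene of low level whose genotypes did not overlap, Cdh8. Each is the 250 bases before the RefSeq transcript start on GRCm38.p6, 5′ to 3′ on the gene's strand (minus for both), with CpG dinucleotides in capitals; Cdh6 covers chr15:13173676-13173925 and Cdh8 chr8:99416472-99416721.
Cdh6: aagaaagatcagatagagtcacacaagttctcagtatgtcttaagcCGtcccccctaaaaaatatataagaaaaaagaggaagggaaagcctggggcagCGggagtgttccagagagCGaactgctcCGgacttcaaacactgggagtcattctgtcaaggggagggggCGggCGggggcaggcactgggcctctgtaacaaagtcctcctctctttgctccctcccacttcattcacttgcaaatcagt
Cdh8: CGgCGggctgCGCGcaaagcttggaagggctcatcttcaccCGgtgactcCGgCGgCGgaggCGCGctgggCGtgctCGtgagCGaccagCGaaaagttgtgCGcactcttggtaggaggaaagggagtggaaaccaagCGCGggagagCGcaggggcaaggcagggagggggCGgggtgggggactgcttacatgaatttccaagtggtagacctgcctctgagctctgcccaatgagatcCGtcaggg
The Cdh8 stretch holds 20 CpGs and 64.4% G and C, and more CpGs than 82.1% of the 32851 promoter windows of that length. The Cdh6 stretch holds 6 CpGs, the median of all windows, and 51.2% G and C. Neither holds CACCTG or its reverse complement CAGGTG, the E-box bound by Snail and Zeb factors, searched on both strands, which 17.2% of windows hold. Windows of Cdh7 (3 starts, with 13, 17 and 3 CpGs) and Cdh10 (2 CpGs) were counted in the same way. Of these, 2 of the 3 Cdh7 windows held that E-box and the Cdh10 window did not, and 4 of the 8 genes matched the RefSeq promoter table. A match or its absence describes these letters only.

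Cdh13 encodes T-cadherin, an atypical member that is held to the membrane by a lipid anchor, lacks the tail that binds catenins, and binds adiponectin on endothelium and muscle. It had 18.2, 4.41 and 18.4 FPKM in SS18-SSX2 tumors 1, 2 and 3, against 3.05, 9.71 and 3.97 FPKM in SS18-SSX1 tumors 1, 2 and 3. Tumors 1 and 3 of SS18-SSX2 were the highest, while the muscle-rich tumor 2 had the lower value in SS18-SSX2 and the higher value in SS18-SSX1, so the groups overlapped. The means were 13.7 ± 8.04 FPKM in SS18-SSX2 tumors and 5.58 ± 3.61 FPKM in SS18-SSX1 tumors (SD, n = 3 each), a ratio of 2.45. The log2 fold change was 1.08 (SE 0.58, 95% interval -0.27 to 2.43, limma adjusted p = 0.997). It was 2.11 without tumor 2 of both genotypes and 1.69 without SS18-SSX2 tumor 2, and still did not pass in either case (limma adjusted p = 0.131 and 0.393).

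Markers of the cell types that usually carry T-cadherin did not share 1 order with it. The 6 endothelial markers, all detected in every tumor, had means of 3.32, 1.71 and 3.12 in SS18-SSX2 tumors 1, 2 and 3 and 3.18, 1.38 and 2.52 in SS18-SSX1 tumors 1, 2 and 3. Their summed level was 15.9 to 65.4 FPKM in SS18-SSX2 tumors and 11.1 to 54.7 FPKM in SS18-SSX1 tumors. SS18-SSX1 tumor 1 had a high endothelial mean and the lowest Cdh13. The 7 smooth muscle and pericyte markers had means of 3.56, 3.80 and 3.29 in SS18-SSX2 tumors and 2.68, 3.36 and 2.51 in SS18-SSX1 tumors, and summed levels of 103 to 216 FPKM in SS18-SSX2 tumors and 59.2 to 252 FPKM in SS18-SSX1 tumors. The highest sum of each genotype was in tumor 2 and came mostly from desmin (Des), which skeletal muscle carries too, with 140 FPKM in the SS18-SSX2 tumor and 202 FPKM in the SS18-SSX1 tumor, so the sum is not specific to smooth muscle and pericytes. Other genes of this list had other orders. Acta2 had 20.0 to 28.4 FPKM in SS18-SSX2 tumors and 3.58 to 5.10 FPKM in SS18-SSX1 tumors. Tagln had 9.05 to 20.1 FPKM in SS18-SSX2 tumors and 1.94 to 5.68 FPKM in SS18-SSX1 tumors. The genotypes overlapped for Des, Myh11, Cnn1, Pdgfrb and Rgs5, and Rgs5 was lowest in tumor 2 of each genotype. The part of endothelial, smooth muscle and pericyte RNA in the Cdh13 levels was not tested.

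**Figure D3:**
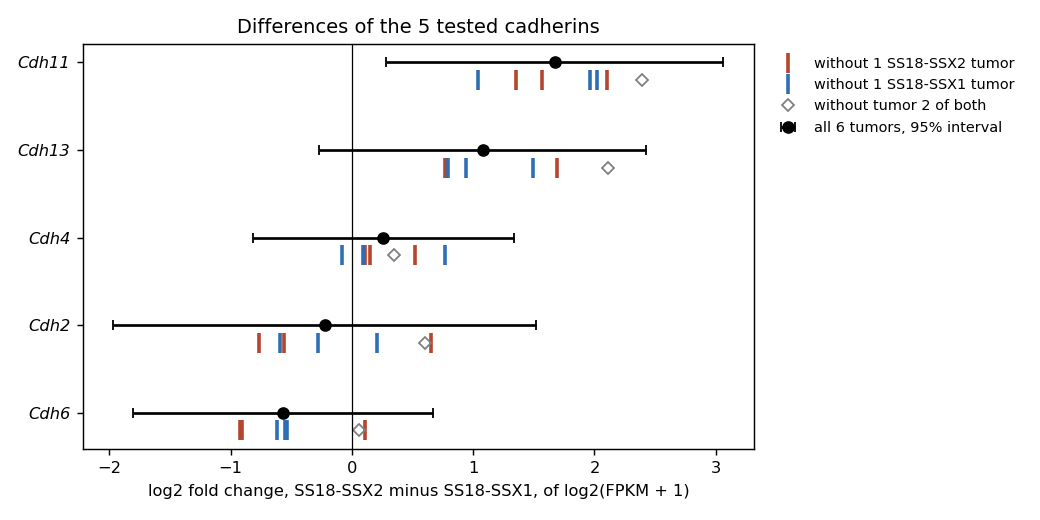
Log2 fold change of the 5 tested cadherins (horizontal axis, in log2(FPKM + 1) units, positive where SS18-SSX2 is higher). Black points are limma estimates from all 6 tumors with 95% intervals, ticks are estimates without 1 SS18-SSX2 tumor (red) or 1 SS18-SSX1 tumor (blue), and diamonds leave out tumor 2 of both. Cdh11, at 1.67, and Cdh13, at 1.08, stay above 0 in each, while Cdh4, Cdh2 and Cdh6 change sign in at least 1.

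The cadherins made up a different mixture in SS18-SSX1 tumor 1 than in the other tumors. FPKM is per length, so levels of different genes can be added within a tumor. The 8 genes summed to 233, 81.3 and 197 FPKM in SS18-SSX2 tumors 1, 2 and 3 and to 115, 101 and 92.2 FPKM in SS18-SSX1 tumors 1, 2 and 3. Cdh11 took 56.8%, 56.6% and 49.7% of the sum in SS18-SSX2 tumors, and 8.78%, 38.7% and 45.7% in SS18-SSX1 tumors. Cdh4 took 52.4% in SS18-SSX1 tumor 1 and 17.7% to 29.9% in each other tumor. The type I genes together made up 67.0% there, and 24.7% to 31.8% elsewhere. Cdh11 to Cdh4 stood at 3.22, 1.89 and 2.25 in SS18-SSX2 tumors and at 0.168, 1.70 and 2.35 in SS18-SSX1 tumors, so their ratio overlapped between genotypes. The Cdh6 share was 10.1%, 6.16% and 12.2% in SS18-SSX2 tumors and 20.1%, 20.2% and 24.4% in SS18-SSX1 tumors, without overlap. The shares of Cdh11 and Cdh8 did not overlap either. Shares of a sum depend on each other, and the Cdh6 level itself overlapped between genotypes. It was 23.5, 5.01 and 24.1 FPKM in SS18-SSX2 tumors 1, 2 and 3 and 23.0, 20.4 and 22.5 FPKM in SS18-SSX1 tumors. The lower Cdh6 share thus went with a larger sum in SS18-SSX2 tumors 1 and 3 and with a lower Cdh6 level in tumor 2. Why these levels differed was not tested.

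**Figure D4:**
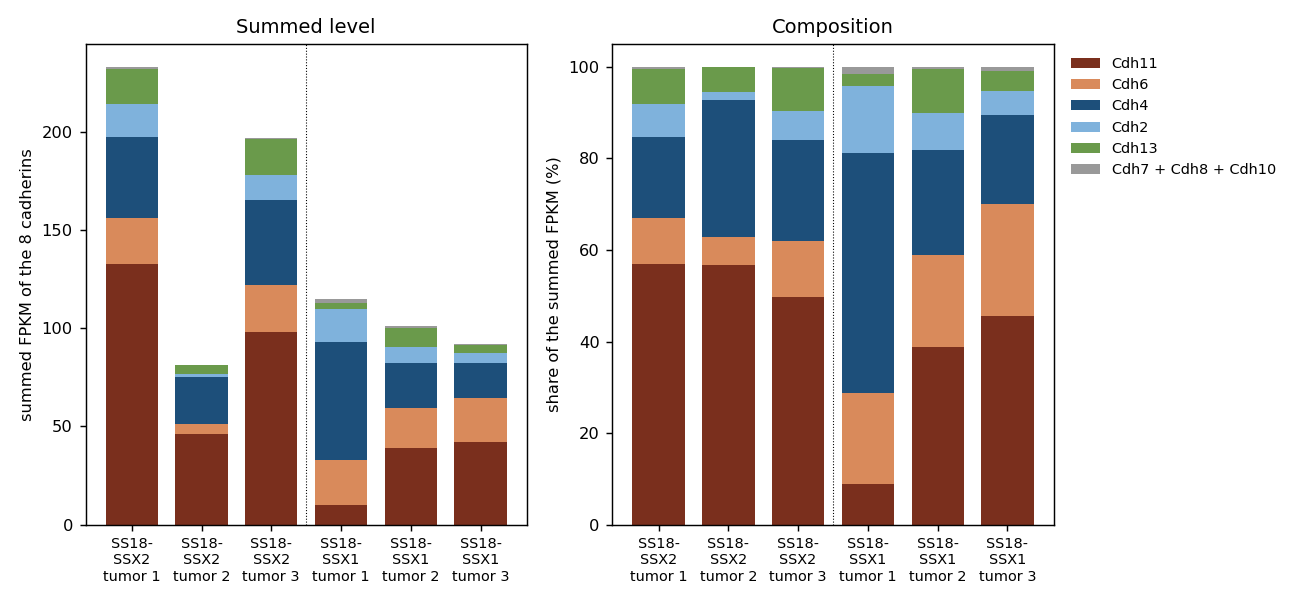
Summed level of the 8 cadherins in FPKM (left panel) and the share of each in that sum in percent (right panel), per tumor, with SS18-SSX2 tumors left of the dotted line and SS18-SSX1 tumors right of it. Cdh11 takes 49.7% to 56.8% of the sum in SS18-SSX2 tumors and 8.78% to 45.7% in SS18-SSX1 tumors, and Cdh4 takes 52.4% in SS18-SSX1 tumor 1.

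The 5 tested cadherins stood in the order Cdh11, Cdh4, Cdh6, Cdh13 and Cdh2 in the 3 SS18-SSX2 tumors and in SS18-SSX1 tumor 2. Below them came Cdh7, Cdh10 and Cdh8 in SS18-SSX2 tumors 1 and 3, while Cdh10 and Cdh8 were both at 0 in SS18-SSX2 tumor 2. In SS18-SSX1 tumor 1 Cdh4 led, followed by Cdh6, Cdh2 and Cdh11, and in SS18-SSX1 tumor 3 Cdh11 led, followed by Cdh6 and Cdh4. Over the SS18-SSX2 tumors neighbouring means of Cdh6, Cdh13 and Cdh2 differed by less than the larger SD, as did those of Cdh4, Cdh11 and Cdh6 over the SS18-SSX1 tumors. Together with 9 classical cadherins of the lists below, the 8 genes, the atypical Cdh13 included, came to 139 to 320 FPKM in SS18-SSX2 tumors and 142 to 216 FPKM in SS18-SSX1 tumors. Of this total the 8 genes made up 58.7% to 72.7% in SS18-SSX2 tumors and 53.2% to 71.1% in SS18-SSX1 tumors.

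For each tested member the genes with the most similar pattern over the 6 tumors were found by the root mean square difference of log2(FPKM + 1), each gene centred on its own mean. Ccn1, a matricellular protein, was nearest to Cdh11, at 0.148 against a median of 1.22 over all tested genes, with 103, 39.2 and 103 FPKM in SS18-SSX2 tumors 1, 2 and 3 and 8.63, 39.1 and 36.6 FPKM in SS18-SSX1 tumors 1, 2 and 3. The next nearest was ENSMUSG00000098168, at 0.212. Nearest to Cdh2 were Fat1, an atypical cadherin, at 0.176, and Ptprd, a receptor tyrosine phosphatase, at 0.22 (median of all tested genes 1.08). Fat1 had 85.6, 16.4 and 73.5 FPKM in SS18-SSX2 tumors and 85.2, 49.6 and 32.1 FPKM in SS18-SSX1 tumors, so it too was lowest in SS18-SSX2 tumor 2. Cdh13 was nearest to Spock2, a matrix proteoglycan, at 0.266, and to Dst, a cytoskeletal linker, at 0.276. Cdh4 was nearest to Gm26935 (0.095) and Rgs3 (0.106), and Cdh6 to the small nucleolar RNA Snord49a (0.225) and to Lhfp (0.255). Among the members themselves the closest pair was Cdh2 and Cdh6, at 0.539, and the farthest Cdh2 and Cdh11, at 1.51.

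The rest of the cadherin system was read from 6 lists with 64 genes, of which 46 were tested. None of the 46 passed (limma adjusted p under 0.05), 4 had an unadjusted p under 0.05, where 4.97% of tested genes did, and 33 had a higher mean on the log scale in SS18-SSX2 tumors, where 7096 of 13873 tested genes did. The genotypes did not overlap for 5 of the 46, where 8.72% of tested genes did not. Of the other type I cadherins, E-cadherin (Cdh1), the epithelial cadherin, had 2.69 ± 2.66 FPKM in SS18-SSX2 tumors and 2.77 ± 1.30 FPKM in SS18-SSX1 tumors, and P-cadherin (Cdh3) had 14.7 ± 4.98 FPKM in SS18-SSX2 tumors and 21.1 ± 12.8 FPKM in SS18-SSX1 tumors (SD, n = 3 each). The muscle cadherin Cdh15 was below the filter. Of the other type II cadherins 3 of 8 were tested, 0 passed, and all 3 had a higher mean in SS18-SSX2 tumors. Cdh22 had 27.9 ± 9.23 FPKM in SS18-SSX2 tumors and 20.6 ± 2.93 FPKM in SS18-SSX1 tumors, Cdh24 had 14.4 ± 5.02 FPKM in SS18-SSX2 tumors and 11.7 ± 2.80 FPKM in SS18-SSX1 tumors, and the endothelial cadherin Cdh5 had 23.6 ± 15.5 FPKM in SS18-SSX2 tumors and 13.3 ± 12.5 FPKM in SS18-SSX1 tumors (SD, n = 3 each).

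Catenins and their adaptors link cadherins to actin. All 10 tested of 13 had a higher mean in SS18-SSX2 tumors, with a median log2 fold change of 0.24 against 0.01 over all genes tested, and 0 passed. Beta-catenin (Ctnnb1), the most abundant, had 216 ± 32.3 FPKM in SS18-SSX2 tumors and 193 ± 17.7 FPKM in SS18-SSX1 tumors (SD, n = 3 each). Alpha-catenin (Ctnna1) had 94.7, 80.4 and 88.4 FPKM in SS18-SSX2 tumors and 66.8, 61.2 and 76.1 FPKM in SS18-SSX1 tumors, with a log2 fold change of 0.37 (SE 0.25, limma adjusted p = 0.997). The p120-related adaptor Pkp4 had 14.9 ± 2.28 FPKM in SS18-SSX2 tumors and 9.16 ± 2.49 FPKM in SS18-SSX1 tumors (SD, n = 3 each), and p120-catenin (Ctnnd1) had 49.2 ± 2.15 FPKM in SS18-SSX2 tumors and 38.9 ± 10.2 FPKM in SS18-SSX1 tumors.

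Protocadherins, which lack the catenin link of classical cadherins and act largely in the nervous system, had 8 of 10 tested members with a higher mean in SS18-SSX2 tumors, 2 with a lower one, a median log2 fold change of 0.79 and 0 calls. The X-linked Pcdh11x had 10.6, 2.39 and 8.40 FPKM in SS18-SSX2 tumors and 0.0666, 0.0242 and 2.21 FPKM in SS18-SSX1 tumors, a log2 fold change of 2.24 (SE 0.61, limma adjusted p = 0.602). Pcdh20 had 3.55, 28.3 and 3.23 FPKM in SS18-SSX2 tumors and 0.158, 0.180 and 2.21 FPKM in SS18-SSX1 tumors (log2 fold change 2.34, SE 0.78, limma adjusted p = 0.810). Pcdh11x and Pcdh20 were the 2 of 10 tested protocadherins whose groups did not overlap, where 8.72% of tested genes did not. Both passed the filter on low values through the SS18-SSX2 tumors, as only tumor 3 of SS18-SSX1 reached 1 FPKM. The filter thus favoured such genes, and the count gives no support for a difference. Pcdh1 had 4.95 ± 1.75 FPKM in SS18-SSX2 tumors and 2.24 ± 1.78 FPKM in SS18-SSX1 tumors, and Pcdh8 had 27.1 ± 20.4 FPKM in SS18-SSX2 tumors and 23.1 ± 17.3 FPKM in SS18-SSX1 tumors (SD, n = 3 each). Pcdh19 had 12.7 ± 4.33 FPKM in SS18-SSX2 tumors and 8.82 ± 5.76 FPKM in SS18-SSX1 tumors (SD, n = 3 each).

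In the list of atypical, FAT and seven-pass cadherins, 4 of 7 tested members had a higher mean on the log scale in SS18-SSX2 tumors, 3 had a lower one, and 0 passed. Celsr1, a planar cell polarity cadherin, had 7.13, 4.46 and 8.92 FPKM in SS18-SSX2 tumors and 1.84, 1.45 and 1.50 FPKM in SS18-SSX1 tumors. Its groups were apart, its log2 fold change was 1.55 (SE 0.31), and it did not pass over all genes (limma adjusted p = 0.413). Fat1 and Fat4, large cadherins of the FAT family, had 58.5 ± 37.0 and 25.6 ± 13.4 FPKM in SS18-SSX2 tumors and 55.6 ± 27.0 and 24.7 ± 11.7 FPKM in SS18-SSX1 tumors (SD, n = 3 each). Dchs1, a ligand of Fat4, had 5.42 ± 3.90 FPKM in SS18-SSX2 tumors and 13.0 ± 10.8 FPKM in SS18-SSX1 tumors, and Cdh23 had 13.3 ± 10.2 FPKM in SS18-SSX2 tumors and 5.06 ± 7.24 FPKM in SS18-SSX1 tumors. Of the processing, signalling and binding partners 8 of 14 tested had a higher mean in SS18-SSX2 tumors, 6 had a lower one, and 0 passed. Nectin1, an adhesion protein that seeds cadherin junctions, had 31.5 ± 15.5 FPKM in SS18-SSX2 tumors and 16.4 ± 9.80 FPKM in SS18-SSX1 tumors, and Nectin3 had 3.74 ± 2.32 FPKM in SS18-SSX2 tumors and 5.73 ± 1.79 FPKM in SS18-SSX1 tumors (SD, n = 3 each). Fgfr1, a receptor that N-cadherin can bind, had 48.0 ± 10.9 FPKM in SS18-SSX2 tumors and 42.4 ± 15.6 FPKM in SS18-SSX1 tumors. Adipor1, a receptor of adiponectin, had 43.0 ± 7.72 FPKM in SS18-SSX2 tumors and 32.9 ± 6.77 FPKM in SS18-SSX1 tumors.

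On GRCm38 Cdh2 (ENSMUSG00000024304) lies on chromosome 18 from 16588877 to 16809246 and Cdh4 (ENSMUSG00000000305) on chromosome 2 from 179442431 to 179899373. Cdh6 (ENSMUSG00000039385) spans 13028701 to 13173675 and Cdh10 (ENSMUSG00000022321) 18818947 to 19014236 on chromosome 15, and Cdh7 (ENSMUSG00000026312) spans 109982431 to 110140157 on chromosome 1. Chromosome 8 carries Cdh8 (ENSMUSG00000036510, 99024471 to 99416471), Cdh11 (ENSMUSG00000031673, 102632095 to 102785642) and Cdh13 (ENSMUSG00000031841, 118283733 to 119324921). Of the chromosome 8 genes, Cdh8 was lower in every SS18-SSX2 tumor, whereas Cdh11 and Cdh13 had log2 fold changes above 0. Their patterns differed by 0.622, against a median of 1.22 between Cdh11 and all tested genes. By nearness Cdh13 ranked 49 for Cdh11, and Cdh11 ranked 265 for Cdh13. Cdh2 and Cdh6, on different chromosomes, were closer, at 0.539. A link between position and pattern was not tested.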

How the data were processed

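Total RNA of 6 leg tumors was extracted with Qiagen kits and made into Ribo-Zero libraries, which deplete ribosomal RNA, per the labels' protocols. The submitters' processing notes list Novoalign 2.08.03 and mm10 without saying what each was used for. Levels were deposited as FPKM in 1 table, with a column for each tumor that was matched through the sample's description. The sources used here do not give how reads were counted, on which gene models and with what regard to strand, or how genes were filtered. Symbols of 17029 of 17312 genes came from GENCODE mouse release 21, and 283 had none.

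Genes with at least 1 FPKM in at least 3 tumors (13873) entered a two-sided comparison of SS18-SSX2 minus SS18-SSX1 on log2(FPKM + 1), fitted in limma 3.58.1 (R 4.3.3, eBayes with a trend). All their p-values were adjusted together by Benjamini-Hochberg, and a gene was called at an adjusted p under 0.05. The fit was tested on simulated data, where it called 3.2% of log2 changes of 1 and 57.6% of log2 changes of 2. Each of 5 runs changed 200 of 13873 genes, by log2 changes of up to 4. The runs together gave 615 calls, against 9 in the tumors. So many changed genes make the adjusted cutoff easier to pass, so these percentages may be too high for the tumors. A gene that was not called can therefore still differ. Summaries used Python 3.11.15, pandas 2.3.3, numpy 2.4.6 and scipy 1.17.1, and figures matplotlib 3.10.9.

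Reads were recovered from the steps between low FPKM values of 1475 single-exon genes, where 77.8% to 80.6% of low values were whole within 0.02 reads. For the members, a length that gave whole reads within 0.001 in all tumors was the annotated exon length for Cdh2, Cdh8 and Cdh10 and the smallest whole length for the other members. A count of 0 was set against 3 reads, and intervals are exact binomial at 95% confidence and cover counting error only.

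The members, lists and tests were chosen with earlier results of these data known. Named genes are all members, in each list up to 3 tested genes with the smallest p and 2 with the highest mean, the 2 genes nearest in pattern to each tested member, and cell type markers, of which the text gives those of most use. Genes of the lists Cdh12, Cdh16, Cdh17, Cdh19 and Dchs2 were not analysed here.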

Additional observations from a re-analysis of the deposited data

How the results depend on the processing

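Over 16 alternatives (TPM, upper quartile and quantile scaling, pseudocounts of 0.1 and 0.5, no filter, a filter at a mean of 5 FPKM, no trend in eBayes, the replicate block, each tumor left out, and tumor 2 of both genotypes left out) the number of members called stayed at 0, as did that of each list. The lowest adjusted p of a member was 0.131. Ranges of limma adjusted p were 0.342 to 0.99997 for Cdh11 and 0.131 to 0.99997 for Cdh13. Leaving out tumor 2 of both genotypes gave log2 fold changes of 0.60 for Cdh2 and 0.059 for Cdh6, against the sign with all tumors. With each tumor left out in turn they ran from -0.77 to 0.65 for Cdh2, -0.080 to 0.77 for Cdh4 and -0.92 to 0.11 for Cdh6, with signs that depended on SS18-SSX2 tumor 2 and SS18-SSX1 tumor 1 for Cdh2, SS18-SSX1 tumor 3 for Cdh4 and SS18-SSX2 tumor 2 for Cdh6. The causes were not tested beyond the tumor left out. Over all genes the 9 calls became 5 with a pseudocount of 0.1, 4 with the replicate block, 20 without tumor 2 of both genotypes and 3 to 11 with each tumor left out, fewest without SS18-SSX2 tumor 3.

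The labels do not say whether tumor numbers pair the samples. The column names of both tumors 2 start with A and those of both tumors 3 with B. What these letters mean is not given. Deviations from the group means correlated at 0.38, 0.31 and -0.28 for tumors 1, 2 and 3. For SS18-SSX2 tumors 1 and 2 the same number was the best match, whereas SS18-SSX2 tumor 3 correlated best with SS18-SSX1 tumor 1. With 3 tumors per genotype these values cannot decide whether samples pair. With the replicate block the log2 fold change of Cdh11 was 1.67 (limma adjusted p = 0.791). Depth limits Cdh7, Cdh8 and Cdh10, since 3 reads of Cdh8 are worth 0.0532 FPKM in the shallowest library, SS18-SSX2 tumor 2, and 0.0221 FPKM in the deepest, SS18-SSX1 tumor 3.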
